A study of Homo sapiens with 12 samples.

Results

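The subunit genes of RNA polymerases I, II and III were taken from the PC-3M table as the protein-coding rows whose symbol begins with POLR1, POLR2 or POLR3 followed by a letter, with the row of highest mean kept for a symbol. This gave 30 genes of 24359 symbols, from 38 transcript rows. By their known place in the enzymes, 3 belong to RNA polymerase I only, 7 to RNA polymerase II only and 10 to RNA polymerase III only, 2 are shared by RNA polymerases I and III, and 5 are shared by all 3 enzymes. The remaining 3 are POLR2J2 and POLR2J3, near-identical paralogs of POLR2J, and POLR2M, which encodes a protein bound to RNA polymerase II that is not a core subunit.

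RNA polymerase I transcribes the large ribosomal RNA precursor in the nucleolus, RNA polymerase II transcribes messenger RNA genes, and RNA polymerase III transcribes transfer RNA, the small ribosomal RNA of the large subunit and other short RNAs. Each enzyme has a pair of large catalytic subunits, an alpha-like pair on which assembly starts, small subunits common to all 3 enzymes and a stalk, and RNA polymerases I and III carry built-in counterparts of the separate RNA polymerase II factors TFIIF and TFIIE. Output of RNA polymerases I and III is closely tied to growth in proliferating cells.

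RNA-seq of total RNA was made from PC-3M, a metastatic human prostate cancer line, treated with KMT9a siRNA (3 libraries) or control siRNA (3 libraries) at passage 11. The same 2 treatments, with 3 libraries each, were applied to MCF10A, a non-transformed breast epithelial line at passage 13. KMT9a is the methyltransferase subunit encoded by N6AMT1, and the series title names metabolism and proliferation as its questions. Each group is a transient knockdown in 1 established line, with libraries labelled as biological replicates, and the labels do not say that they came from separate cultures, so the p-values describe only how far these libraries vary, which may be technical.

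The control libraries of PC-3M held 51055942 to 53401602 read ends in genes and the knockdown libraries 40236221 to 48439316, so depth differed with the treatment. Its part in the results was not tested. N6AMT1 stood at 11.5 ± 0.529 CPM (TMM-scaled read ends relative to the summed reads of tested genes, SD, n = 3) in the controls and at 2.81 ± 0.213 CPM with KMT9a siRNA. KMT9a siRNA replicate 2 stood apart from the other knockdown libraries, with a chi-square over degrees of freedom of 11.6 and 14.1 against them, where these differed by 2.45 and control pairs by 1.61 to 2.40. Of the epithelial keratin and adhesion markers (KRT8, KRT18, EPCAM, CDH1) 4 of 4 were detected, with a summed level of 775 to 797 CPM in control and 898 to 978 CPM in knockdown libraries. Basal breast markers (4 genes) summed to 0.425 to 0.443 CPM in the controls and 1.04 to 1.52 CPM after knockdown, none at 0. Prostate luminal markers (5 genes) summed to 1.11 to 1.47 CPM in the controls and 1.88 to 2.79 CPM after knockdown, with KLK3 and TMPRSS2 at 0 in all 3 knockdown libraries. Of the marker lists for other cell types, fibroblast genes (6, DCN at 0 in every library) summed to 136 to 145 CPM in the controls and 53.4 to 64.4 CPM after knockdown, endothelial genes (4, VWF at 0 in every library and CDH5 at 0 after knockdown) to 40.4 to 48.2 and 9.79 to 10.6 CPM, and leukocyte genes (5, CD3E at 0 after knockdown) to 44.1 to 49.5 and 55.8 to 69.2 CPM. The sums rested mostly on few genes, and members moved in different directions. The endothelial fall was that of KDR (44.2 to 8.13 CPM), while PECAM1 rose (0.358 to 2.09 CPM). COL1A2 (80.7 to 12.3 CPM) and COL1A1 fell, while PDGFRA rose. CD68 (46.6 to 57.3 CPM) held most of the leukocyte sum. KRT8 (147 to 335 CPM) and CDH1 rose, while EPCAM (41.1 to 23.3 CPM) and KRT18 fell. The part of these lists in the results was not tested. In these bulk libraries fewer cells with a transcript and less of the transcript per cell cannot be told apart.

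All 30 genes passed the filter on low reads. With KMT9a siRNA 21 of them fell and 3 rose at a limma adjusted p under 0.05, and 6 did not pass. Over all 14958 tested genes 37.3% were called lower and 37.2% higher, 74.5% in all. The median log2 fold change was -0.33 over the subunit genes and 0.00099 over all tested genes. The groups did not overlap for 21 of the 30, with the knockdown lower in 18 and higher in 3, where 77.0% of all tested genes did not overlap (38.4% lower, 38.6% higher). The changes were of moderate size, and only POLR2L and POLR2H fell by at least 1 log2 unit under the main settings. When the libraries were scaled by their totals alone, the median over all genes moved to -0.17, with 4384 genes called higher and 6821 lower in place of 5564 and 5575, and 3 of the subunit genes were then higher and 23 lower. On that scale the log2 fold changes of POLR1B (-0.43), POLR1C (-0.455), POLR2I (-0.49), POLR2J2 (-0.459), POLR2J3 (-0.47), POLR3E (-0.34) and POLR3F (-0.51) were over 1.5 times those given below. Without KMT9a siRNA replicate 2, 21 of the subunit genes were lower and 5 higher, where 39.4% of all genes were lower and 38.3% higher, 77.6% in all, the added calls being POLR2D (log2 fold change 0.12, limma adjusted p = 0.0497) and POLR3G (0.10, limma adjusted p = 0.0169).

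**Figure D1:**
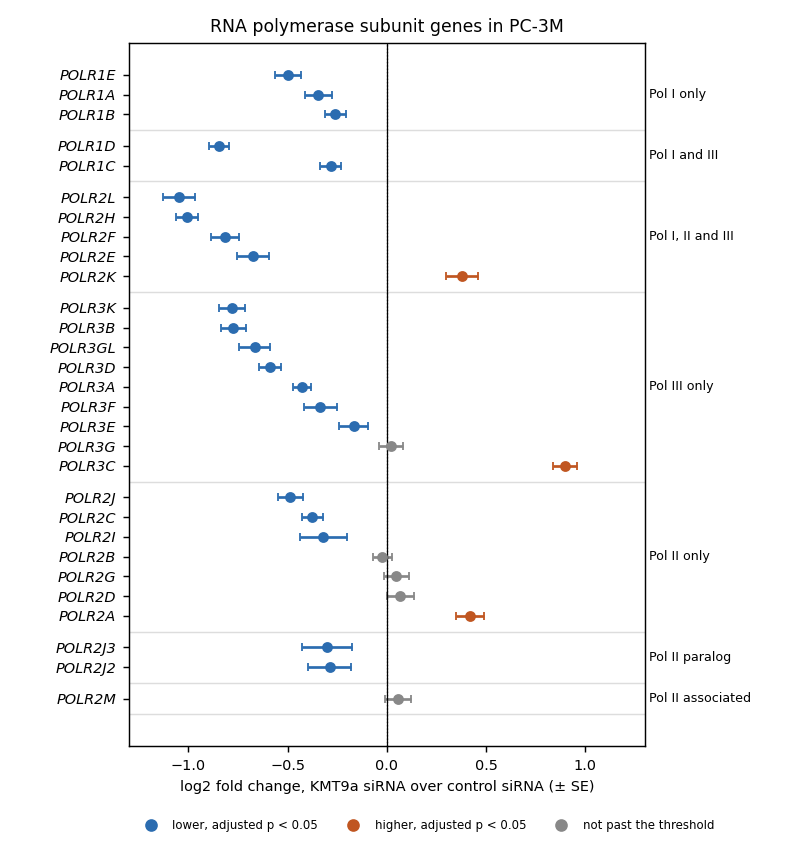
Log2 fold change with its standard error for 29 of the subunit genes in PC-3M, KMT9a siRNA over control siRNA, grouped by the enzyme they belong to; blue genes were lower, orange genes higher and grey genes did not pass a limma adjusted p of 0.05, and the dotted line marks the median of all tested genes (0.00099). Every gene of RNA polymerase I only and those shared by I and III lie left of 0, and the 3 orange genes are POLR2K, POLR3C and POLR2A.

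The calls were counted by enzyme, beside 37.3% lower and 37.2% higher over all tested genes. Of the genes belonging to RNA polymerase I only, 3 of 3 were lower (median log2 fold change -0.35), and of those shared by RNA polymerases I and III 2 of 2 were lower (median -0.56). Of the genes shared by all 3 enzymes, 4 of 5 were lower and 1 higher (median -0.82). RNA polymerase III had 7 of its own 10 genes lower, 1 higher and 2 not past the test (median -0.38), and RNA polymerase II 3 of its own 7 lower, 1 higher and 3 not past the test (median -0.02), a lower share near that of all genes. Counting shared genes with each enzyme they belong to, the medians were -0.59 over 10 genes of RNA polymerase I, -0.35 over 12 of RNA polymerase II and -0.59 over 17 of RNA polymerase III. These 3 counts share the same 5 genes, subunits are not replicates, and the difference between enzymes was described and not tested. Subunit genes outside the naming rule, given below, are not in the counts by enzyme. Of these, CD3EAP, TWISTNB and ZNRD1 of RNA polymerase I fell, and CRCP of RNA polymerase III rose.

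The catalytic subunits come first. POLR1A encodes the largest subunit of RNA polymerase I. It stood at 112, 99.4 and 105 CPM in the 3 control libraries and at 76.6, 90.1 and 82.5 CPM in the 3 knockdown libraries, with no overlap (log2 fold change -0.35, SE 0.0676, limma adjusted p = 0.000498). POLR1B, its second-largest subunit, stood at 107, 104 and 107 CPM in control and at 89.7, 83.8 and 91.7 CPM in knockdown libraries. Again every knockdown library lay below every control library, and the fall was smaller (-0.26, SE 0.0534, limma adjusted p = 0.000737).

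POLR2A encodes the largest subunit of RNA polymerase II, which carries the C-terminal repeat domain. Its level rose, from 144, 138 and 145 CPM in the controls to 174, 216 and 184 CPM in the knockdown libraries (0.42, SE 0.0707, limma adjusted p = 0.000154). The highest value was that of KMT9a siRNA replicate 2, and without that library the log2 fold change was 0.33. Scaled by library totals alone it was 0.246 (limma adjusted p = 0.00398). POLR2B, the partner of POLR2A in the catalytic core, stood at 284, 280.1 and 283 CPM in the controls and at 282, 266 and 287 CPM after knockdown. The groups overlapped and the test was not passed (-0.02, SE 0.0468, limma adjusted p = 0.675); scaled by library totals alone POLR2B was called lower (-0.19, limma adjusted p = 0.00335). The 2 large subunits of RNA polymerase II therefore did not both pass under TMM scaling, which was the main one.

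POLR3A, the largest subunit of RNA polymerase III, stood at 517, 495 and 503 CPM in control and at 365, 389 and 373 CPM in knockdown libraries. It fell with no overlap (-0.43, SE 0.0459, limma adjusted p = 2.55e-06) and remained the most abundant of the 30 genes in CPM in both groups. POLR3B, the second-largest subunit, fell from 32.0, 32.9 and 32.2 CPM to 19.1, 18.8 and 18.8 CPM (-0.77, SE 0.0632, limma adjusted p = 1.96e-07). Per kilobase of transcript the control levels of the 2 catalytic partners were far apart in RNA polymerase III, 76.8 CPM per kb for POLR3A and 7.67 CPM per kb for POLR3B. They were closer in RNA polymerase I, 16.0 CPM per kb for POLR1A and 19.7 for POLR1B, and in RNA polymerase II the second-largest subunit was the higher, 21.3 CPM per kb for POLR2A and 76.4 for POLR2B.

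**Figure D2:**
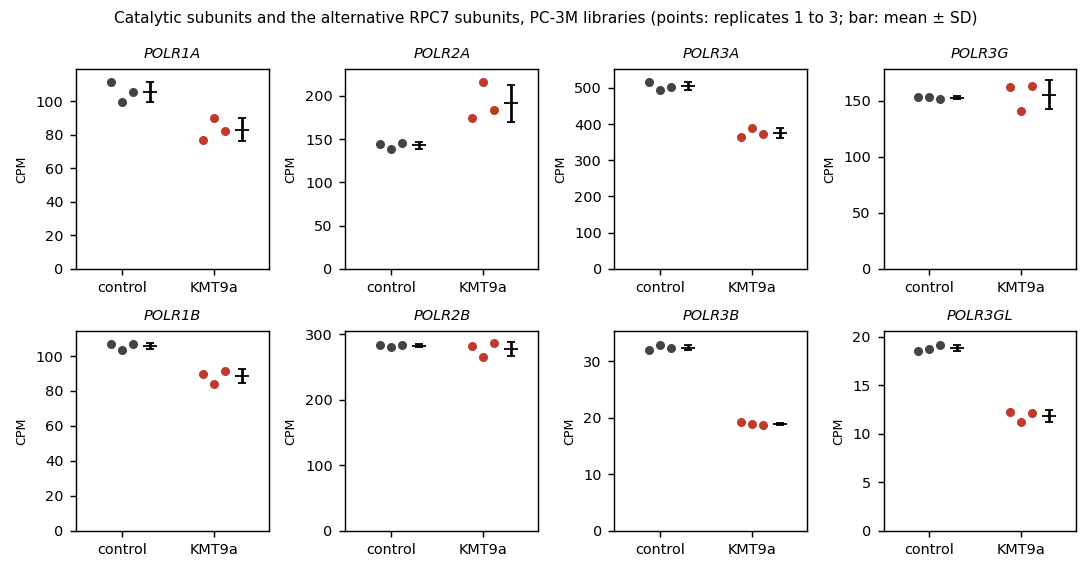
Level in CPM (TMM-scaled, linear axis from 0) of the 6 catalytic subunit genes and of POLR3G and POLR3GL in the 6 PC-3M libraries; points are libraries (replicates 1 to 3 from left to right), and the bar beside them is the mean with its SD. POLR1A, POLR1B, POLR3A, POLR3B and POLR3GL have all knockdown points below all control points, POLR2A has them above, and POLR2B and POLR3G overlap.

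Of the 5 small subunit genes that all 3 enzymes share, 4 fell and 1 rose. POLR2L, the RPB10 subunit, fell from 242, 226 and 237 CPM to 107, 133 and 103 CPM (-1.05, SE 0.0821, limma adjusted p = 1.32e-07). POLR2H, the RPB8 subunit, fell from 83.8, 80.7 and 82.9 CPM to 42.7, 40.9 and 39.6 CPM (-1.01, SE 0.0556, limma adjusted p = 5.22e-09). Both were at about 2-fold lower levels, 2.06-fold for POLR2L and 2.01-fold for POLR2H, and no library of one group reached the other group.

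POLR2F, the RPB6 subunit, fell from 52.9 ± 2.36 to 30.1 ± 2.33 CPM (SD, n = 3; -0.82, limma adjusted p = 3.41e-07), and POLR2E, the RPB5 subunit, from 181 ± 3.75 to 114 ± 16.3 CPM (SD, n = 3; -0.67, limma adjusted p = 7.27e-06). POLR2K, the RPB12 subunit, was the exception: it rose from 27.3, 27.7 and 28.5 CPM to 36.1, 32.2 and 40.8 CPM (0.38, SE 0.0823, limma adjusted p = 0.0011), or by 0.207 when scaled by library totals alone (limma adjusted p = 0.0433). The knockdown libraries of POLR2K were spread more widely than its controls, and all 3 lay above them. In KMT9a siRNA replicate 2 the values of POLR2L, POLR2E, POLR2F and POLR2K lay nearer to the controls than in the other knockdown libraries.

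**Figure D3:**
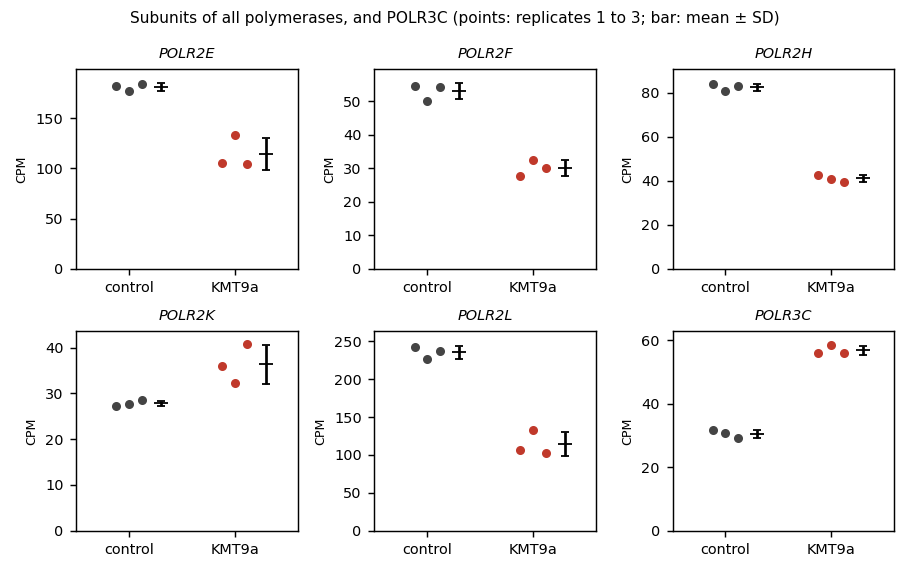
Level in CPM (TMM-scaled, linear axis from 0) of the 5 subunit genes shared by all 3 polymerases and of POLR3C in the 6 PC-3M libraries; points are libraries (replicates 1 to 3 from left to right), and the bar is the mean with its SD. POLR2E, POLR2F, POLR2H and POLR2L are lower and POLR2K and POLR3C higher after KMT9a siRNA, in every library.

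The alpha-like subunits that nucleate assembly were lower in each enzyme. For RNA polymerases I and III these are POLR1C, which fell from 118 ± 1.55 to 97.0 ± 4.47 CPM (SD, n = 3; -0.28, limma adjusted p = 0.000313), and POLR1D. POLR1D stood at 91.2, 94.7 and 89.7 CPM in the controls and at 50.8, 51.3 and 51.2 CPM in the knockdown libraries (-0.85, SE 0.0521, limma adjusted p = 1.38e-08). Its counterparts in RNA polymerase II fell too: POLR2J, the RPB11 subunit, from 57.4, 54.5 and 55.9 CPM to 37.8, 42.7 and 39.3 CPM (-0.49, SE 0.0628, limma adjusted p = 1.42e-05), and POLR2C, the RPB3 subunit, from 84.1 ± 0.338 to 64.8 ± 2.93 CPM (SD, n = 3; -0.38, limma adjusted p = 3.86e-05).

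The transcript rows of POLR1D moved apart. The table holds 3 rows for it on hg19 chromosome 13, plus strand. NM_015972 (28195916 to 28197590, 807 bases) is the row described above. NM_152705 (28195916 to 28241559, 2038 bases) begins at the same base and runs on to distal exons, and NM_001206559 (28194880 to 28241559, 2205 bases) begins upstream. In GENCODE v29 on GRCh38, NM_015972 has 2 exons, of which the second (575 bases) overlaps no exon of the other rows, while exons 2 and 3 of NM_152705 and NM_001206559 overlap each other and the first exon of NM_001206559 (194 bases) stands alone.

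When all 26205 transcript rows with enough reads were fitted together, a setting added after seeing the data, 37.5% were called lower and 38.2% higher. NM_015972 fell (-0.85, SE 0.0515, limma adjusted p = 1.55e-08). NM_001206559 rose from 10.9, 12.3 and 12.3 CPM to 18.5, 18.2 and 18.8 CPM (0.64, SE 0.079, limma adjusted p = 1.1e-05), with every knockdown library above every control library. NM_152705, which shares a first exon with the one and distal exons with the other, stood at 24.8 ± 1.67 CPM in the controls and 25.8 ± 1.10 CPM after knockdown (SD, n = 3; 0.06, limma adjusted p = 0.495). Reads of shared exons were present in more than one row, so the rows are not independent. In POLR1B, POLR2M and POLR3B, which also have several rows, the log2 fold changes within a gene had one sign: -0.27 and -0.27 for POLR1B, 0.05, 0.05 and 0.04 for POLR2M and -0.78 and -0.78 for POLR3B.

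**Figure D4:**
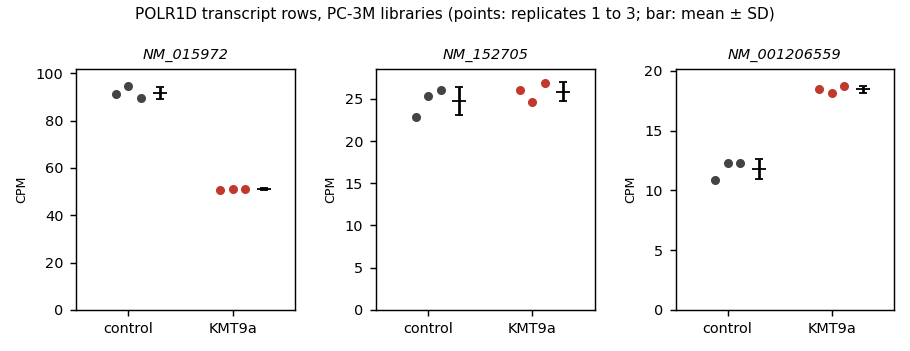
Level in CPM (TMM-scaled, linear axis from 0) of the 3 POLR1D transcript rows in the 6 PC-3M libraries; points are libraries (replicates 1 to 3 from left to right), and the bar is the mean with its SD. NM_015972 is lower, NM_152705 overlaps between groups and NM_001206559 is higher after KMT9a siRNA.

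RefSeq lists 2 starts for POLR1D, and the 250 bases before each are printed here. NM_015972 and NM_152705, which begin at the same base on hg19, also moved apart (-0.85 and 0.06). The part of the start in these changes was not tested. In GENCODE v29 the first exon of NM_152705 (231 bases) overlaps that of NM_015972 by 118 bases. The downstream start was not matched to the first base of the rows, so its window can include bases of their first exon. Sequences are from GRCh38.p14, 5′ to 3′ on the strand of the gene. Capitals mark matches, on either strand, to the GC box (GGGCGG), the CCAAT box (CCAAT), the E-box (CACGTG), an ETS site (CCGGAAG) or the TATA box (TATAAA).
POLR1D, upstream start (chr13:27620493-27620742, plus strand): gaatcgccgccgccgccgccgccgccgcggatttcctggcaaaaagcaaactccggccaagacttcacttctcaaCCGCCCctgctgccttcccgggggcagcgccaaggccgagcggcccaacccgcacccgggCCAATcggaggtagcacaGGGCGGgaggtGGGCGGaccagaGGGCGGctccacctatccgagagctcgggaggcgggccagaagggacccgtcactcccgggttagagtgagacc
POLR1D, downstream start (chr13:27621642-27621891, plus strand): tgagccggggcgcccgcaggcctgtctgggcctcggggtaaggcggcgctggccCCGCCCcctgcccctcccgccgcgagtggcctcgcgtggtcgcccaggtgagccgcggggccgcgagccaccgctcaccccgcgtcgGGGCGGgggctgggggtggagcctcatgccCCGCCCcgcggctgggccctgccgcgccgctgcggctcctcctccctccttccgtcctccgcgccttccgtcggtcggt

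The upstream window holds 4 GC boxes and 1 CCAAT box, and the downstream window holds 3 GC boxes and no match to the other 4 motifs. The G and C content is 70.0% upstream and 80.8% downstream. The windows of POLR2A, the largest subunit, whose level rose, and of POLR2L, whose level fell by about 2-fold, are given for contrast between genes that moved in opposite directions.
POLR2A (chr17:7484116-7484365, plus strand): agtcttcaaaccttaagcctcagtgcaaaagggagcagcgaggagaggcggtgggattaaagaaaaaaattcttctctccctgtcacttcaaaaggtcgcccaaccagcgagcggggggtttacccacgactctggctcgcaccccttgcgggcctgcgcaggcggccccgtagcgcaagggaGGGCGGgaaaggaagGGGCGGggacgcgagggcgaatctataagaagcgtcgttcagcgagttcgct
POLR2L (chr11:842530-842779, minus strand): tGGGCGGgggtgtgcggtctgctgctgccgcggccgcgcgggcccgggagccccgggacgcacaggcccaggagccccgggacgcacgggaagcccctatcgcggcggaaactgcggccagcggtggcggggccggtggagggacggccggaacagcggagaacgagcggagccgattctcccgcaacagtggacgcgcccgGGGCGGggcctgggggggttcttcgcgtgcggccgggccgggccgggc

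Both hold 2 GC boxes and no match to the other 4 motifs, at a G and C content of 59.6% for POLR2A and 79.2% for POLR2L. Windows of 21 of the 30 genes were used, 27 in all. Genes on chromosome 8 (POLR2K and POLR3D among the 30) were left out of the subunit windows but kept among the windows of all genes. The other genes without a window had no full RefSeq window under their symbol. A GC box was present in 21 of the 27 windows (77.8%), against 42.6% of 35116 RefSeq windows of all genes, noncoding genes included. Those windows were not limited to genes tested here, so the sets differ in kind. An ETS site was present in 8 (29.6%, against 8.52%), a CCAAT box in 5 (18.5%, against 32.0%), an E-box in 2 (7.41%, against 6.34%) and a TATA box in 1 (3.70%, against 10.7%). By direction the count was by gene and not by window, with a match in any window of a gene enough, and 6 genes had several starts. Among genes with a window, a GC box stood in 11 of 16 that fell, 2 of 2 that rose and 3 of 3 that did not pass. POLR2K, which also rose, is not among them. These are matches of letters in a window and not measured binding.

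The stalk binds the emerging RNA and takes part in initiation, and its genes in RNA polymerase II did not pass the test. POLR2D (RPB4) stood at 47.3 ± 2.86 and 49.6 ± 2.87 CPM (SD, n = 3; 0.07, SE 0.0673, limma adjusted p = 0.371) and POLR2G (RPB7) at 37.1 ± 1.23 and 38.4 ± 1.91 CPM (0.05, SE 0.0635, limma adjusted p = 0.514) in control and knockdown libraries. Scaled by library totals alone, POLR2D and POLR2G had negative log2 fold changes of -0.10 and -0.12 that did not pass. CRCP, a stalk subunit of RNA polymerase III whose symbol falls outside the naming rule, rose from 39.5 ± 1.29 to 49.9 ± 1.34 CPM (SD, n = 3; 0.34, limma adjusted p = 0.000186). TWISTNB, a stalk subunit of RNA polymerase I under its older symbol, fell from 51.9 ± 1.59 to 30.8 ± 2.57 CPM (SD, n = 3; -0.75, limma adjusted p = 7.3e-07).

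The built-in TFIIF-like subunits were lower in both enzymes that carry them. POLR1E of RNA polymerase I fell from 48.5, 44.6 and 43.2 CPM to 31.2, 32.4 and 32.9 CPM (-0.50, SE 0.0646, limma adjusted p = 1.51e-05). Its partner CD3EAP, an RNA polymerase I subunit outside the naming rule, fell from 46.4 ± 1.83 to 20.6 ± 1.68 CPM (SD, n = 3; -1.17, limma adjusted p = 1.6e-08), and ZNRD1, the small RNA polymerase I subunit of the same kind as POLR2I and POLR3K, from 21.9 ± 0.0947 to 15.2 ± 1.02 CPM (-0.52, limma adjusted p = 3.59e-05). All 3 RNA polymerase I subunits listed under other symbols were thus lower. In RNA polymerase III, POLR3D fell from 59.4 ± 0.656 to 39.5 ± 0.99 CPM (SD, n = 3; -0.59, limma adjusted p = 7.4e-07).

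POLR3E, the partner of POLR3D, stood at 65.0 ± 0.829 CPM in the controls and 58.1 ± 6.01 CPM after knockdown (SD, n = 3; -0.17, limma adjusted p = 0.0482), with KMT9a siRNA replicate 2 at 64.8 CPM among the controls. Its call was lost in the edgeR quasi-likelihood test (adjusted p = 0.0538), without a filter (limma adjusted p = 0.0522) and with the replicate number as a block (0.0548). It was also lost without control replicate 1 (0.0868), 2 (0.108) or 3 (0.115) and without KMT9a siRNA replicate 1 (0.168) or 3 (0.0719; limma adjusted p). Without KMT9a siRNA replicate 2 the log2 fold change was -0.25.

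The TFIIE-like subunits, found in RNA polymerase III and needed to open DNA at its promoters, moved in different directions. POLR3C showed the largest rise of the 30 genes, from 31.7, 30.6 and 29.1 CPM to 56.0, 58.3 and 56.0 CPM (0.90, SE 0.0601, limma adjusted p = 2.96e-08), a level 1.86-fold higher with a narrow spread in both groups. POLR3F, which forms the trimer with it, fell from 16.3 ± 0.392 to 13.0 ± 1.04 CPM (SD, n = 3; -0.34, limma adjusted p = 0.00278). The third place is taken by either POLR3G or POLR3GL, which encode alternative RPC7 subunits, the former known for its high level in stem cells and tumour lines and the latter for broad expression.

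POLR3G stood at 154, 153 and 151 CPM in the controls and at 162, 141 and 163 CPM after knockdown. The knockdown libraries lay on both sides of the controls (0.02, SE 0.0607, limma adjusted p = 0.753), with KMT9a siRNA replicate 2 the lowest. POLR3GL fell from 18.5, 18.7 and 19.2 CPM to 12.2, 11.2 and 12.1 CPM (-0.67, SE 0.0763, limma adjusted p = 4.7e-06). The ratio of POLR3G to POLR3GL was taken from the scaled values with the pseudocount of 1 added, not divided by length. It was 8.28, 8.15 and 7.88 in the controls and 13.2, 12.6 and 13.4 in the knockdown libraries. The difference of their log2 values rose from 3.02 ± 0.0365 to 3.71 ± 0.0508 (SD, n = 3), a gain of 0.69, in 3 of 3 knockdown libraries against every control (exact permutation test, two-sided, p = 0.1, the smallest that 3 against 3 libraries can give). Per kilobase the control levels were 46.7 CPM per kb for POLR3G and 16.4 for POLR3GL.

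POLR3K, the RPC10 subunit needed for transcript cleavage and termination, fell from 59.6, 54.5 and 57.5 CPM to 32.0, 35.8 and 32.2 CPM (-0.78, SE 0.0661, limma adjusted p = 2.79e-07). No library of one group reached the other. Its counterpart in RNA polymerase II, POLR2I (RPB9), was lower by a smaller amount, 12.7 ± 0.372 against 10.3 ± 1.98 CPM (SD, n = 3; -0.32, limma adjusted p = 0.0271), with KMT9a siRNA replicate 2 at 12.6 CPM inside the range of the controls. The POLR2I call was lost without control replicate 1 (limma adjusted p = 0.0758) or 2 (0.0675) and without KMT9a siRNA replicate 1 (0.098) or 3 (0.061). POLR2I shares 319 bases with the antisense gene TBCB, whose level was higher, and without a stated strand setting reads there cannot be assigned.

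The POLR2J paralogs were at low levels, and reads could be split between near-identical copies. POLR2J3 stood at 5.52, 5.09 and 4.80 CPM in the controls and at 3.63, 4.23 and 4.66 CPM after knockdown (-0.30, SE 0.126, limma adjusted p = 0.0457). The groups were separated by a narrow gap, and the call was lost without control replicate 1 (limma adjusted p = 0.154), 2 (0.09) or 3 (0.0555), without KMT9a siRNA replicate 1 (0.163), without a filter (0.068), with the block (0.0639) and in DESeq2 (adjusted p = 0.0586). POLR2J2 stood at 8.66 ± 0.613 and 7.10 ± 0.827 CPM (SD, n = 3; -0.29, limma adjusted p = 0.0302); its call was lost without control replicate 1 (limma adjusted p = 0.116) or 3 (0.0787) and without KMT9a siRNA replicate 1 (0.1) or 3 (0.0502), and it overlaps UPK3BL, a same-strand gene of nearly the same level. POLR2M stood at 42.9, 43.3 and 46.4 CPM in the controls and at 47.4, 43.1 and 47.4 CPM after knockdown, with overlap (0.06, SE 0.064, limma adjusted p = 0.441), and its whole span lies within GCOM1.

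Length of the transcript row varied with the size of the change. Of the 8 subunit genes under 1000 bases, 6 were lower and 1 higher (median log2 fold change -0.63), of 13 between 1000 and 3000 bases 11 were lower and 1 higher (median -0.34), and of 9 over 3000 bases 4 were lower and 1 higher (median -0.02). Over all tested genes the medians in the same length classes, chosen after seeing the data, were -0.09, -0.10 and 0.12, and 40.1%, 41.3% and 32.9% of genes were called lower. The part of length in the result was not tested.

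Genes that work with the polymerases were counted beside the subunits, where 37.3% of all tested genes were called lower and 37.2% higher. Of 15 genes for assembly of the enzymes, 11 were lower and 2 higher (median -0.53). The GTPase gene GPN3, needed for import of RNA polymerase II, fell from 68.9 ± 2.65 to 23.4 ± 1.31 CPM (-1.56), the ATPase gene RUVBL1 from 119.6 ± 3.92 to 53.8 ± 1.54 CPM (-1.15) and the prefoldin gene PFDN6 from 80.6 ± 1.13 to 39.1 ± 0.834 CPM (-1.04), while the prefoldin-like gene PDRG1 rose from 29.6 ± 1.41 to 89.2 ± 3.19 CPM (1.59; SD, n = 3, limma adjusted p between 1.8e-10 for PDRG1 and 2.64e-09 for PFDN6). Of 6 mitochondrial transcription genes, which serve a separate polymerase, 5 fell and 1 rose (median -0.48). Among them TFB1M (log2 fold change -1.09), the mitochondrial DNA-packaging factor TFAM (-0.88), the polymerase gene POLRMT (-0.54) and TFB2M (-0.42) fell, with a limma adjusted p of at most 0.00104.

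Of 8 genes listed for RNA polymerase I initiation, 5 rose and 2 fell (median 0.21), beside 37.2% higher and 37.3% lower over all tested genes. The list includes the termination factor gene TTF1, which did not pass. TBP, which rose, is also counted in the lists of RNA polymerase II general factors and RNA polymerase III initiation genes below. UBTF, which binds the ribosomal DNA promoter, rose from 163 ± 3.18 to 237 ± 9.29 CPM (0.53), and the selectivity-factor genes TAF1D and TAF1B rose by 0.63 and 0.56 log2 units, while RRN3, which recruits the enzyme, fell (-0.22; SD, n = 3, limma adjusted p between 5.79e-07 for UBTF and 0.00901 for RRN3). Of 18 RNA polymerase III initiation genes 6 fell and 5 rose (median 0.05), in both directions a share below that of all tested genes. Among them SNAPC1 (-1.22), the TFIIIC subunit GTF3C6 (-1.01) and the TFIIIA gene GTF3A (-0.701) fell, and GTF3C1 rose (0.27). MAF1, a repressor of RNA polymerase III, rose from 200.9 ± 3.5 to 280.4 ± 23.8 CPM (SD, n = 3; 0.48, limma adjusted p = 1.01e-05). Scaled by library totals, the middle of all genes lies 0.17 log2 units lower, and the signs of the small list medians were not recomputed on that scale.

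The lists of RNA polymerase II factors held calls in both directions, as did all tested genes (37.3% lower, 37.2% higher). Among 31 general factor genes 14 fell and 15 rose (median 0.13): TAF1 (log2 fold change 1.01) and GTF2H1 (0.797) rose, and GTF2H5 (-1.38) and TAF6 (-0.84) fell. Among 31 Mediator genes 11 fell and 12 rose (median 0.09), shares near those of all tested genes. MED12 (0.998), MED13 (1.02) and MED23 (0.85) were higher and MED21 (-0.78) was lower. Among 31 elongation genes 11 fell and 16 rose (median 0.20). The kinase gene CDK9 rose from 45.7 ± 0.882 to 110.2 ± 8.39 CPM (SD, n = 3; 1.27, limma adjusted p = 1.73e-09), and CTR9, ELL2 and NELFCD rose by 1.07, 1.13 and 0.97 log2 units.

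**Figure D5:**
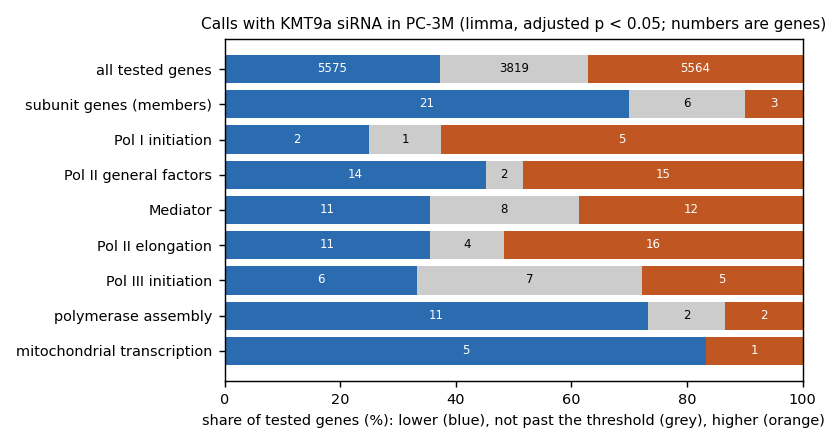
Share of genes called lower (blue), higher (orange) or not past a limma adjusted p of 0.05 (grey) with KMT9a siRNA in PC-3M, for all tested genes, the 30 subunit genes and 7 lists of related genes; the numbers in the bars are genes. The subunit genes (21 lower, 3 higher) and assembly genes (11 lower, 2 higher) lie mostly on the lower side. The RNA polymerase I initiation list, which includes TTF1 (2 lower, 5 higher in the list), lies mostly on the higher side. TBP is counted in each list where it belongs.

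Of the 30 genes, 24 were past an adjusted p of 0.05 in the authors' deposited table, and these were the 24 called here, with the same sign. The authors' deposited table gives log2 fold changes of -1.07 for POLR2L, -1.03 for POLR2H, 0.87 for POLR3C and 0.40 for POLR2A.

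In MCF10A the subunit genes were nearly without reads. Each library held 181064 to 255642 read ends in genes, and at the share the 30 genes had in the PC-3M controls (0.296% to 0.308%) they would have had 535 to 787 read ends in a library. Of the 30 genes, 19 were at 0 in all 6 libraries and 11 had reads in at least 1, with 16 read ends over the 3 control and 11 over the 3 knockdown libraries. Per library the 30 genes together had 2 to 10 read ends, 0.00104% to 0.00473% of the reads in genes, so they fell short of the PC-3M share by far more than the difference in depth, and the cause was not tested. A count of 0 in a library allows up to 3 read pairs (counting error only), so absence cannot be read from it. None of the 30 was among the 1049 genes that could be tested, of which 5 (0.477%) were called, and no comparison of the treatments was made for the subunits in this line. Of 4 basal breast markers, KRT5 and KRT14 were at 0 in all 3 MCF10A control libraries and KRT5 and KRT6A in all 3 knockdown libraries, and the list summed to 0 to 17.2 CPM in the controls and 10.5 to 637 CPM after knockdown.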

How the data were processed

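Per the submitters' processing notes the tools were STAR, edgeR and HOMER, on hg19; versions, roles, filters and strand handling are not given in the sources used here. Per the file headers, the authors deposited for each line 38763 transcript rows with length and a scaled signal per library, together with log2 fold changes and p-values of the authors. Signal values are whole multiples of 1 step per library (100% of values above 0 within 0.1 step), so read ends, 2 to a pair, were recovered. The row of highest mean represents a symbol. The test was limma 3.58.1 with a mean-variance trend (R 4.3.3) on log2 values after TMM scaling and adding a pseudocount of 1, which understates the change of low genes, after the edgeR 4.0.16 filter (minimum count 10, total 15), with Benjamini-Hochberg adjustment over all 14958 tested genes at 0.05. CPM are TMM-scaled, relative to tested genes. edgeR, DESeq2 1.42.0 and limma-voom were run on recovered reads, and the edgeR test called 5595 genes higher and 5552 lower; other alternatives changed the scaling, filter, pseudocount, row choice, threshold, replicate block and libraries. Members, lists and tests were chosen with earlier results of these data known. Values in all libraries are given for catalytic subunits, POLR3G, POLR3GL and the largest changes per class (2, or 1 in small classes), and list genes are the 4 of smallest p among those called. POLR2K is given in full beside them, chosen after its values were seen. Some single results, among them those of 1 member, are not reported here; counts include it. Promoters came from RefSeq on GRCh38.p14 and exons from GENCODE v29.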

Additional observations from a re-analysis of the deposited data

How the results depend on the processing

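Counts of lower and higher calls over the whole table, and of lower calls over the 30 subunit genes (17 to 23), stayed within 1.5 times the main count under every alternative run. Higher calls of subunit genes ranged from 3 to 5 when libraries were left out, those of RNA polymerase II only from 1 to 2 and of RNA polymerase III only from 1 to 2, each with its upper value without KMT9a siRNA replicate 2. With the longest row per symbol POLR1D turned to a log2 fold change of 0.64, and the genes shared by RNA polymerases I and III became 1 lower and 1 higher. Scaling by library totals alone turned the sign of POLR2D (-0.10), POLR2G (-0.12), POLR2M (-0.12) and POLR3G (-0.15), none of which passed. With libraries left out, POLR2B ranged from -0.0598 to 0.0123 and POLR3G from -0.0309 to 0.0954. At a threshold of 0.01 POLR2I, POLR2J2, POLR2J3 and POLR3E lost their calls. The POLR3G to POLR3GL difference ranged from 0.67 to 0.72 over the settings in which it was computed. The edgeR test, the DESeq2 test and limma-voom were not among them. With 1 library left out, the two-sided exact permutation test gave p = 0.2 each time. DESeq2 size factors, limma-voom and pseudocounts of 0.25 and 5 changed no subunit gene's call. With the replicate block 19 subunit genes were lower and 3 higher, POLR2J3 and POLR3E being lost. Same-numbered libraries had correlations of -0.0415, -0.0206 and 0.0372 in their deviations from the group means. Not every library correlated best with its own number. The labels state no pairing, and with 3 libraries per group these correlations cannot show whether same-numbered libraries shared a culture or batch. No paired analysis was possible in MCF10A because no subunit gene had enough reads to be tested.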
